A study of Mus musculus with 27 samples.

Results

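Genes of the motile cilium were followed in RNA sequencing of mouse cortex and hippocampus after intraventricular infusion of antibodies against IgLON5. The set holds the protein-coding genes of the count table whose symbols begin with Cfap, Dnah, Dnai or Dnaic, Dnaaf or Rsph and a number, plus Foxj1, as the GENCODE M21 annotation of GRCm38 names them. It has 61 of the 55487 genes in the table. Of these, 58 passed the filter of at least 10 counts in at least 4 libraries and were tested, and Cfap73, Cfap77 and Cfap161 did not pass it. Male C57Bl/6J wild-type mice aged 8 weeks received PBS, the control IgG pCtrl, or α-IgLON5#1, a polyclonal mixture of IgG that binds IgLON5, affinity-purified from plasma of a patient. An osmotic pump delivered each of them into the right lateral ventricle for 14 days at 0.25 μl/h, and the tissue sequenced was contralateral. The sample labels call the control a monoclonal non-reactive human IgG, whereas the study's methods describe serum IgG of a healthy individual. The 27 libraries came from 14 mice, 13 of them with both tissues. Cortex gave 5 PBS, 5 pCtrl and 4 α-IgLON5#1 libraries, and hippocampus gave 5 PBS, 4 pCtrl and 4 α-IgLON5#1 libraries. Mouse numbers from 8 to 17 cover the whole α-IgLON5#1 group, 1 PBS mouse and 3 pCtrl mice, and what the numbers reflect is not given in the sources used here. Library totals ran from 19385642 to 58550621 counts.

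Motile cilia beat because dynein motors, held in outer and inner arms on the microtubule doublets, slide the doublets against each other. Radial spokes and the central apparatus regulate that sliding, assembly factors fold the dyneins in the cytoplasm, and microtubule inner proteins stabilize the doublets. The transcription factor Foxj1 switches on the motile cilium programme together with RFX factors. In the brain, motile cilia are carried by the ependymal cells that line the ventricles and by choroid plexus epithelium, whereas neurons and astrocytes usually carry a single primary cilium without dynein arms.

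The upstream sequences of 4 dynein genes are shown, chosen by their transcripts. Those of Dnah6, Dnah11 and Dnah12 stood highest in the same 2 hippocampi. Among the members, Dnaic2 followed Foxj1 most closely over all 27 libraries, with group means subtracted. Each is the 250 bases before the start site in RefSeq, on GRCm38.p6, written 5′ to 3′ on the gene's own strand. Capitals mark the X-box, the full site that RFX factors bind, searched as GTTGC, any 3 bases and GCAAC. The coordinates are chr6:73221632-73221881 (minus strand) for Dnah6, chr11:114727169-114727418 (plus strand) for Dnaic2, chr12:118199044-118199293 (minus strand) for Dnah11 and chr14:26691304-26691553 (plus strand) for Dnah12.
Dnah6: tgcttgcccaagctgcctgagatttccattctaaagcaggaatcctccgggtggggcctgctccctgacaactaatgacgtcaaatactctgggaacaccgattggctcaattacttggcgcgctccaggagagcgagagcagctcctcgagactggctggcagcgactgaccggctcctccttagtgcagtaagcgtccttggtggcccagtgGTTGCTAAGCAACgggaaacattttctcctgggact
Dnaic2: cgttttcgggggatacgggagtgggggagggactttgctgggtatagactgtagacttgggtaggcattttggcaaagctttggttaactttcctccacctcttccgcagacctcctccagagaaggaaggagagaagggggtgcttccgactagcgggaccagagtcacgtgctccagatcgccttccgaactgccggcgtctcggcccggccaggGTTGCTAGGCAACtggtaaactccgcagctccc
Dnah11: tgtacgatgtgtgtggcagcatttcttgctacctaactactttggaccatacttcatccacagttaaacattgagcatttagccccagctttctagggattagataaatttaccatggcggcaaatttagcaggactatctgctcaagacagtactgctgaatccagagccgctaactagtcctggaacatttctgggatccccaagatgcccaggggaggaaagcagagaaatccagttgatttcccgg
Dnah12: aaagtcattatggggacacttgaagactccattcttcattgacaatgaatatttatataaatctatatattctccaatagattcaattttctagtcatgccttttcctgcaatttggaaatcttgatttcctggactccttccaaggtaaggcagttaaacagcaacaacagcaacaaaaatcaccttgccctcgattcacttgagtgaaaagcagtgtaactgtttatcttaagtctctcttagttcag
The X-box began 36 bases before the start site in Dnah6 and 33 bases before it in Dnaic2, and the searched letters were not in the windows of Dnah11 and Dnah12. For Dnah12 the window ends at 26691553, whereas the GENCODE gene used for the counts starts at 26693274. Sequence next to that GENCODE start was not searched. RefSeq windows were matched for 48 of the 61 members. The X-box, searched after the Dnah6 window had been seen, was in 5 of 48 (10.4%), namely Dnah6, Dnah7a, Dnah7b, Dnah7c and Dnaic2, against 0.233% of the windows of 27025 genes. Its letters read the same on both strands. Dnah7a, Dnah7b and Dnah7c are close copies of one another, so their hits may not be independent and the share may be inflated. Compared base by base without shifts, their windows shared 60 to 74 of 250 bases. The shorter RFX letters GTTGCCA, on either strand, was in 10 of 48 members (20.8%) against 4.19% of all genes, and no member held it overlapping the X-box. The forkhead letters GTAAACA, on either strand, were in 3 of 48 (6.25%), namely Cfap20, Cfap43 and Dnah17, against 3.54% of all genes.

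The members were checked against 12 ependymal markers, and Tmem212, Ccdc153, Sntn and Fam216b of that list were at or near 0 in most libraries. Tmem212, an ependymal gene outside the set, was at 0 counts in 11 of 13 hippocampi, which allows a level of up to 0.0564 to 0.169 CPM (counts scaled to a common library size) depending on the library. It stood at 1.12 CPM in the hippocampus of PBS mouse 32 and at 1.20 CPM in that of PBS mouse 74. In cortex it was at 0 in 9 of 14 libraries and at most 0.118 CPM. The highest cortical values were those of PBS mice 32 and 74 (0.118 and 0.110 CPM, 4 counts each), next to 0.108 CPM in α-IgLON5#1 mouse 9 (3 counts). Ccdc153, another ependymal gene, was at 2.72 and 3.13 CPM in the same 2 hippocampi, at most 0.285 CPM in the other hippocampi and between 0.105 and 0.660 CPM in cortex. The cortices of PBS mice 32 and 74 were highest there too, at 0.621 and 0.660 CPM, with 0.571 CPM in that of PBS mouse 33. Sntn and Fam216b were at 0.443 and 0.935 CPM in the first and at 0.400 and 0.942 CPM in the second of these hippocampi, and at most 0.118 and 0.245 CPM in any other library. Vit also stood highest in these 2 hippocampi, at 6.41 and 4.87 CPM, with all other libraries between 1.01 and 3.83 CPM. The marker 1700012B09Rik was at 0 in 20 of 27 libraries and at 0.263 and 0.330 CPM in the 2, with a like value of 0.264 CPM in the hippocampus of PBS mouse 33. Tppp3 (14.6 to 22.4 CPM), Tm4sf1 (5.85 to 20.7 CPM), Rarres2 and Hdc were present in every library and not highest in the 2, and Mia was at most 0.190 CPM in any library and not highest in them. The marker 1110017D15Rik was present in every library at 0.532 to 1.46 CPM. It stood at 1.46 and 1.22 CPM in the 2, with 1.23 CPM in the hippocampus of α-IgLON5#1 mouse 8. The summed level of the 12, most of it Tppp3 and Tm4sf1, ran from 29.7 to 46.6 CPM in PBS hippocampi, 30.2 to 37.0 in pCtrl hippocampi and 30.4 to 37.0 in α-IgLON5#1 hippocampi. The summed level of 14 choroid plexus genes was 18.5 to 32.9 CPM in hippocampus and 6.93 to 17.7 CPM in cortex, a gap that lay mostly in Kl (8.73 to 19.5 against 2.63 to 7.50 CPM) and Prlr (2.82 to 6.69 against 0.798 to 2.27 CPM). The choroid plexus gene Ttr overlapped between tissues, at 0.394 to 4.27 and 0.188 to 3.31 CPM. The labels give neurons as the cell type, but the libraries also held markers of astrocytes (4848 to 7411 CPM summed over 8 genes), oligodendrocytes and microglia, as whole tissue does. In such bulk tissue, fewer cells of a type and less RNA per cell cannot be told apart.

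**Figure D1:**
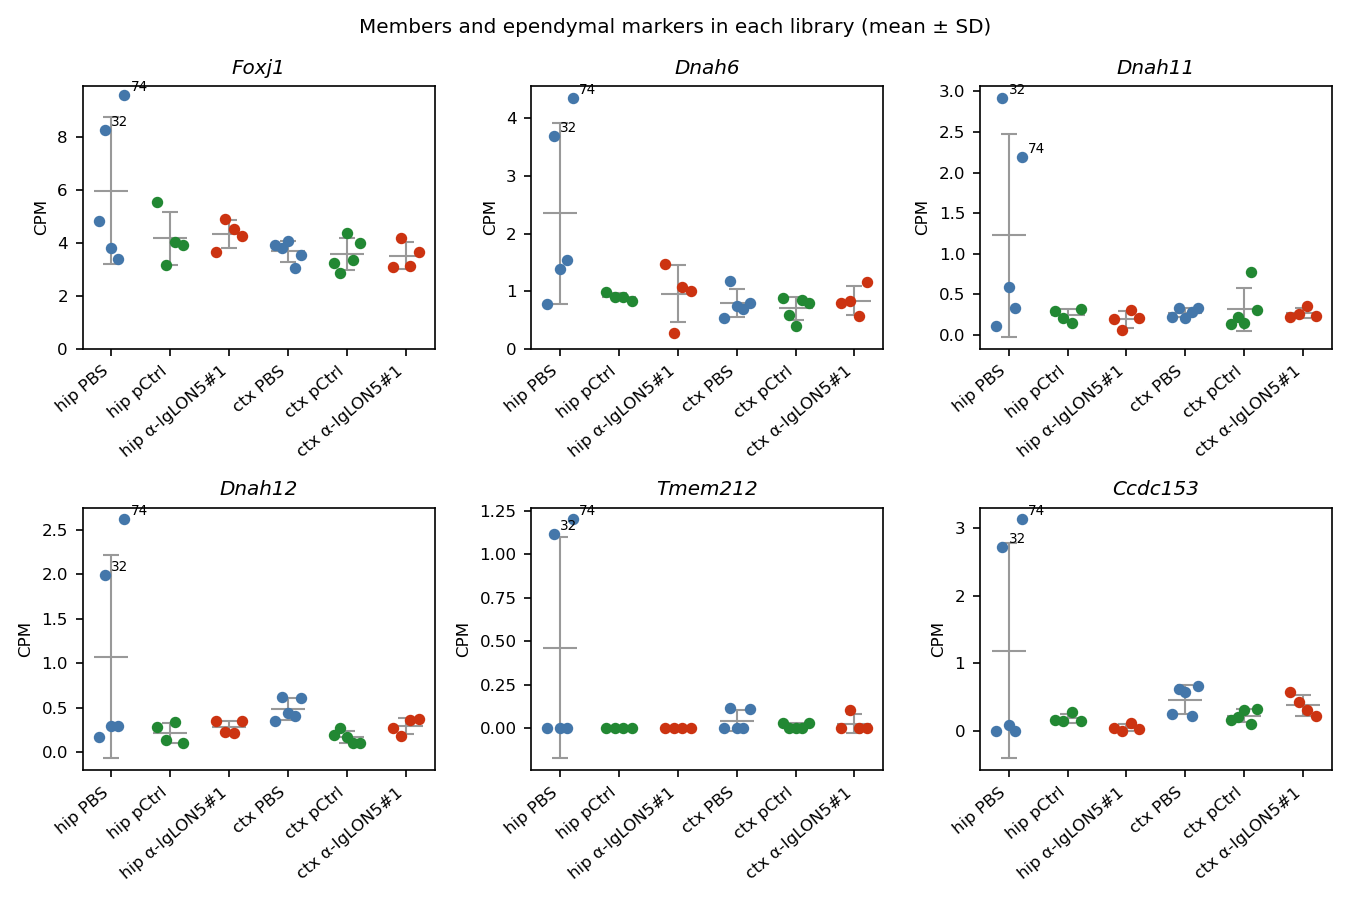
Level in each library, in CPM (vertical axes, linear), of 4 members and of the ependymal markers Tmem212 and Ccdc153 in hippocampus (hip) and cortex (ctx) of mice given PBS, pCtrl or α-IgLON5#1. Points are libraries, bars are the mean ± SD, and the numbers mark the hippocampi of PBS mice 32 and 74, which stand above the other 11 hippocampi in each panel.

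A few genes carried much of the summed level of the members. Summed over the 61 members, the level was 398 ± 22.6 CPM (SD, n = 5) in PBS, 364 ± 3.37 (n = 4) in pCtrl and 363 ± 7.03 (n = 4) in α-IgLON5#1 hippocampi. In cortex it was 366 ± 10.7 (n = 5), 354 ± 12.9 (n = 5) and 362 ± 20.1 (n = 4), and the ranges of all 6 groups overlapped except that every PBS hippocampus stood above every pCtrl hippocampus. Cfap36, Cfap20 and Cfap97 alone gave 36.7 to 45.1% of that sum, depending on the library. Cfap36 ran from 76.2 to 94.4 CPM over the 27 libraries and was not called in any comparison.

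Per kilobase of exon, which allows genes to be compared, 44 of the 61 members had a mean level under 1 CPM. The median of the tested members was 0.373 CPM per kb, against 2.77 over all tested genes with a known length. Cfap36 was first at 30.7 CPM per kb, followed by Cfap20, a protein of the inner junction between doublet microtubules, at 8.27. The assembly factor Cfap300 was at 6.94 and the radial spoke head protein Rsph9 at 6.85. Foxj1 stood at 1.61, above 40.9% of all tested genes. The top members of the other groups were Cfap69 of the central apparatus at 2.72, Cfap100 of the inner arm docking group at 1.28, the outer arm intermediate chain Dnaic1 at 1.01 and the inner arm heavy chain Dnah1 at 0.835. The lowest were Dnah8 at 0.0244, Dnah11 at 0.0303, Cfap77 at 0.0329 and Dnah12 at 0.0363 CPM per kb. Every member had counts in at least 1 library.

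**Figure D2:**
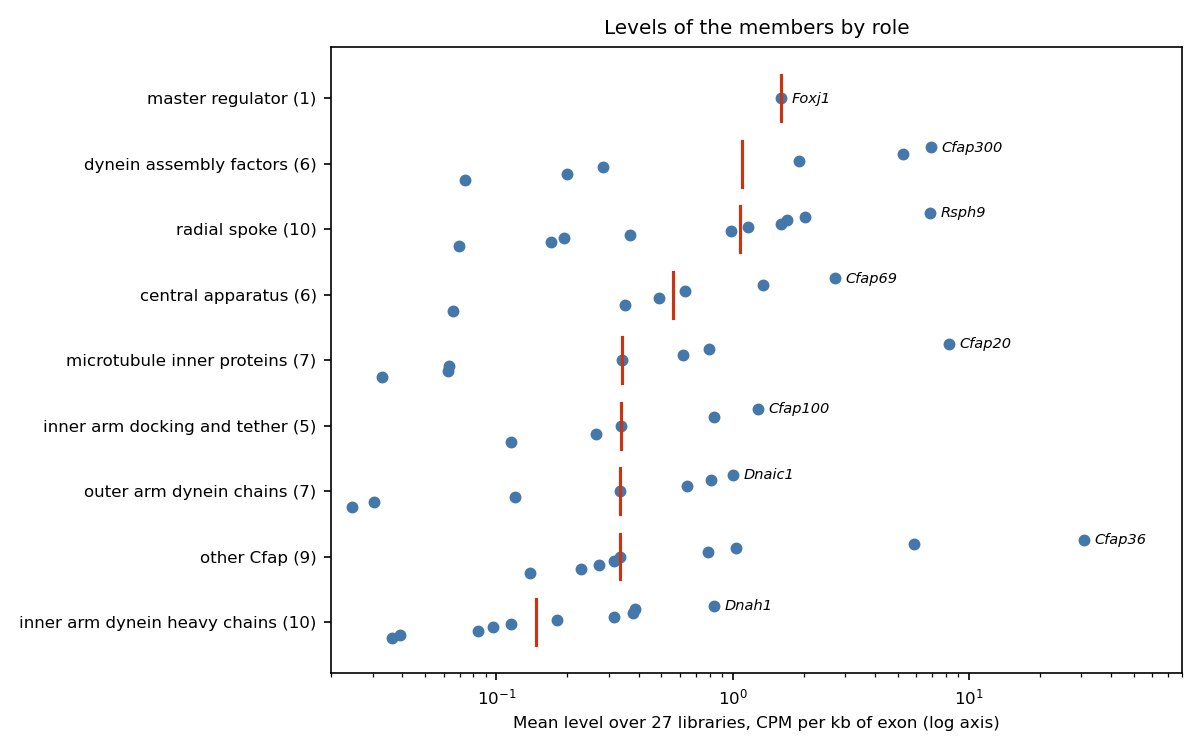
Mean level of each of the 61 members over 27 libraries, in CPM per kilobase of exon (horizontal log axis), by role, with the number of members in brackets. Points are genes, red lines are the median of a role, and the top gene of each role is named; Cfap36 lies at 30.7 and Dnah8, an outer arm chain, at 0.0244.

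Foxj1 (ENSMUSG00000034227.7, chr11:116330704-116335399 on GRCm38, minus strand, no overlapping gene) was detected in every library. In PBS hippocampi it stood at 4.81, 8.25, 3.81, 3.38 and 9.58 CPM in mice 14, 32, 33, 38 and 74. In pCtrl hippocampi it was 5.56, 3.16, 4.02 and 3.93 CPM, and in α-IgLON5#1 hippocampi 3.64, 4.90, 4.54 and 4.24 CPM. The 2 high libraries were those with Tmem212, and the other PBS hippocampi, at 3.38 to 4.81 CPM, overlapped both antibody groups. Cortex held 3.91, 3.81, 4.07, 3.06 and 3.55 CPM with PBS, 3.25, 2.88, 4.38, 3.33 and 3.99 with pCtrl, and 3.10, 4.19, 3.12 and 3.66 with α-IgLON5#1. The order of the group means was 5.97 ± 2.78, 4.33 ± 0.532 and 4.17 ± 1.00 CPM in PBS, α-IgLON5#1 and pCtrl hippocampi, then 3.68 ± 0.396, 3.57 ± 0.606 and 3.52 ± 0.517 CPM in PBS, pCtrl and α-IgLON5#1 cortices (SD), and neighbours in this order did not differ beyond their spread. Between treatments Foxj1 was not called in either tissue, with log2 fold changes of -0.47 ± 0.23 (SE, adjusted p = 0.330) for α-IgLON5#1 against PBS and -0.53 ± 0.23 (adjusted p = 0.275) for pCtrl against PBS hippocampi. Without the hippocampi of PBS mice 32 and 74 the same differences were 0.12 and 0.06. These and the following adjusted p-values come from edgeR's quasi-likelihood test, adjusted over 20271 genes.

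The hippocampi of PBS mice 32 and 74 were singled out by the ependymal markers after the values had been seen, and 13 of the 61 members were higher in both of them than in any of the other 11 hippocampi. Among tested genes this held for 10 of 58 members (17.2%), for 15 of 46 other motile cilia genes (32.6%) and for 2.43% of all 20271. The 13 were Foxj1, the heavy chains Dnah3, Dnah6, Dnah10, Dnah11 and Dnah12, the inner arm tether proteins Cfap43 and Cfap44, Cfap73, Cfap77, Cfap161, Cfap299 and the radial spoke protein Rsph1. No tested member was lower in both than in all others, where only 295 of all 20271 tested genes were. Dnah11, an outer arm heavy chain (chr12:117877982-118199043, minus strand, overlapped by Cdca7l on the other strand), was at 2.92 and 2.19 CPM against 0.0563 to 0.587 CPM in the other hippocampi. Dnah12, a single-headed inner arm heavy chain (chr14:26693274-26891703, plus strand), was at 1.99 and 2.61 CPM against 0.0982 to 0.344 CPM. Dnah6, of the same class (chr6:73017606-73221651, minus strand), was at 3.69 and 4.36 CPM against 0.282 to 1.54 CPM. Their RefSeq upstream windows differ in that Dnah6 holds an X-box and the others do not, but the Dnah12 window lies apart from its GENCODE start. All 3 members that failed the count filter, each under 0.75 CPM, had their 2 highest hippocampal values in these libraries.

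The first comparison asked how the members differed between cortex and hippocampus without antibody. In PBS mice 18 of 58 tested members were called at an adjusted p under 0.05 (31.0%), against 26.7% of all genes. Of these, 12 were lower and 6 higher in cortex, where 12.7% and 14.1% of all genes were called. The median log2 fold change of cortex against hippocampus was -0.07 over the members and -0.01 over all genes, and 0.01 over the members without the hippocampi of PBS mice 32 and 74. Outer arm chains gave 3 calls of 7, all lower in cortex, and the inner arm docking group gave 2 of 4, both lower. Inner arm heavy chains were split, with 2 higher and 3 lower of 10, and the radial spoke group had 1 in each direction of 10. Without the hippocampi of PBS mice 32 and 74, only Dnah9 of the 3 outer arm calls held, and only Dnah2 of the 3 lower inner arm heavy chains. Both calls of the docking group, Cfap44 and Cfap100, held.

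The largest difference was in Dnah9, the outer arm heavy chain of the distal axoneme (chr11:65831282-66168551, minus strand). PBS hippocampi held 20.2, 17.1, 17.1, 20.7 and 25.9 CPM in mice 14, 32, 33, 38 and 74, and the cortices of the same mice 3.26, 4.41, 2.89, 5.23 and 3.96 CPM. The groups did not overlap, and the level was 5.10-fold lower in cortex, a log2 fold change of -2.35 ± 0.21 (adjusted p = 9.74e-09). In pCtrl mice the hippocampi held 13.2, 19.4, 7.47 and 16.0 CPM and the cortices 2.57, 2.24, 2.10, 2.56 and 3.26 CPM. In α-IgLON5#1 mice the hippocampi held 16.8, 21.7, 16.8 and 16.2 CPM and the cortices 4.29, 5.41, 2.45 and 4.02 CPM. The lowest hippocampus, that of pCtrl mouse 37 at 7.47 CPM, was also the hippocampus with the most cortex marker RNA (452 CPM over 8 genes, against 205 to 368 CPM in the others), and the part of that in its level was not tested. The hippocampus of PBS mouse 74 held the highest Dnah9 of all 13, at 25.9 CPM, and without it and that of PBS mouse 32 the difference was -2.29.

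Cfap44, which tethers the inner arm dynein f (chr16:44394796-44482428, plus strand), stood at 10.4, 12.8, 9.68, 12.2 and 12.4 CPM in PBS hippocampi and at 4.26, 5.74, 4.71, 6.24 and 4.37 CPM in the cortices. The log2 fold change was -1.19 ± 0.13 (adjusted p = 1.77e-07), with no overlap. Dnah2, a heavy chain of that same inner arm (chr11:69420809-69549110, minus strand, overlapped by Dnah2os on the other strand and Gm27493 on its own), was at 7.18 to 8.70 CPM in PBS hippocampi and 4.13 to 5.45 CPM in PBS cortices, a difference of -0.73 ± 0.12 (adjusted p = 4.74e-05). Cfap100, a regulator of inner arm dyneins, differed by -0.76 ± 0.15 (6.10 to 8.31 CPM against 3.12 to 4.98 CPM), and Cfap97d2 by -1.06 ± 0.21 (1.30 to 1.99 CPM against 0.626 to 0.852 CPM). The other members lower in cortex were Dnah6, Dnah11, Dnah7b, Dnaic2, Foxj1, Dnaaf3 and Rsph9. Of them Foxj1 was lower by 0.71 ± 0.22 on the log2 scale (3.68 against 5.97 CPM, adjusted p = 0.0149). Without the hippocampi of PBS mice 32 and 74 these 7 calls were lost, with differences of -0.12 for Foxj1, -0.65 for Dnah6, -0.33 for Dnah11, -0.59 for Dnaaf3, -0.15 for Rsph9, -0.35 for Dnaic2 and -0.50 for Dnah7b (adjusted p = 0.0580), where Dnah7b kept nearly its whole difference of -0.52, and members called numbered 7 higher and 5 lower, beside 10.8% and 9.42% of all genes. The 5 that held were Dnah9, Cfap44, Dnah2, Cfap100 and Cfap97d2.

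Higher in cortex were Dnah7c, Cfap99, Cfap52, Cfap69, Cfap206 and Dnah14. Dnah7c, an inner arm heavy chain (chr1:46425592-46807476, plus strand), was at 2.39 to 3.52 CPM in PBS hippocampi and 5.11 to 6.79 CPM in PBS cortices, a log2 fold change of 0.91 ± 0.16 (adjusted p = 7.08e-05). Dnah7b differed the other way, by -0.52 ± 0.16. Dnah7a, Dnah7b and Dnah7c are close copies, as are Rsph3a and Rsph3b, so the split of reads between them is uncertain. Cfap69, a central apparatus protein, was at 15.0 to 20.7 CPM in PBS hippocampi and 23.5 to 26.3 CPM in PBS cortices, higher by 0.38 ± 0.10 (adjusted p = 0.00587). Cfap52, a microtubule inner protein, was at 0.205 to 1.23 CPM and 2.19 to 3.27 CPM, higher by 2.002 ± 0.46 (adjusted p = 0.00146). Cfap206, which sits at the base of radial spokes, was higher by 1.02 ± 0.29, Cfap99 by 1.16 ± 0.26 and Dnah14 by 0.95 ± 0.29.

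The tissue differences were then set beside those of the antibody-treated mice, which share no library with PBS mice. Of the 18 members called in PBS mice, 15 had the same direction in pCtrl and in α-IgLON5#1 mice, where 94.2% of all genes called in PBS mice did, and 6 were called in all 3 treatments (44.6% of all such genes), namely Dnah9, Cfap44 and Dnah2 (lower in cortex) and Dnah7c, Cfap206 and Cfap99 (higher). By counts of calls, 3 members were higher and 5 lower in cortex of pCtrl mice (median 0.01), where 10.7% of all genes were higher and 9.23% lower, and 10 were higher and 7 lower in α-IgLON5#1 mice (median 0.09), where 12% and 11.8% were. Dnah11, at -2.21 in PBS mice, was at 0.35 in pCtrl and 0.38 in α-IgLON5#1 mice. Dnah6, at -1.59, was at -0.38 and -0.20. Cfap52 was higher in cortex by 2.002 in PBS and 1.93 in α-IgLON5#1 mice but stood at -0.41 in pCtrl mice, and Dnaaf3 was at -0.76, -0.36 and 0.18 in the same order. With the mouse as a block, 6 members were called higher and 13 lower in cortex of PBS mice, beside 14.3% and 12.9% of all genes. Rsph9 lost its call under the block (adjusted p = 0.0717).

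**Figure D3:**
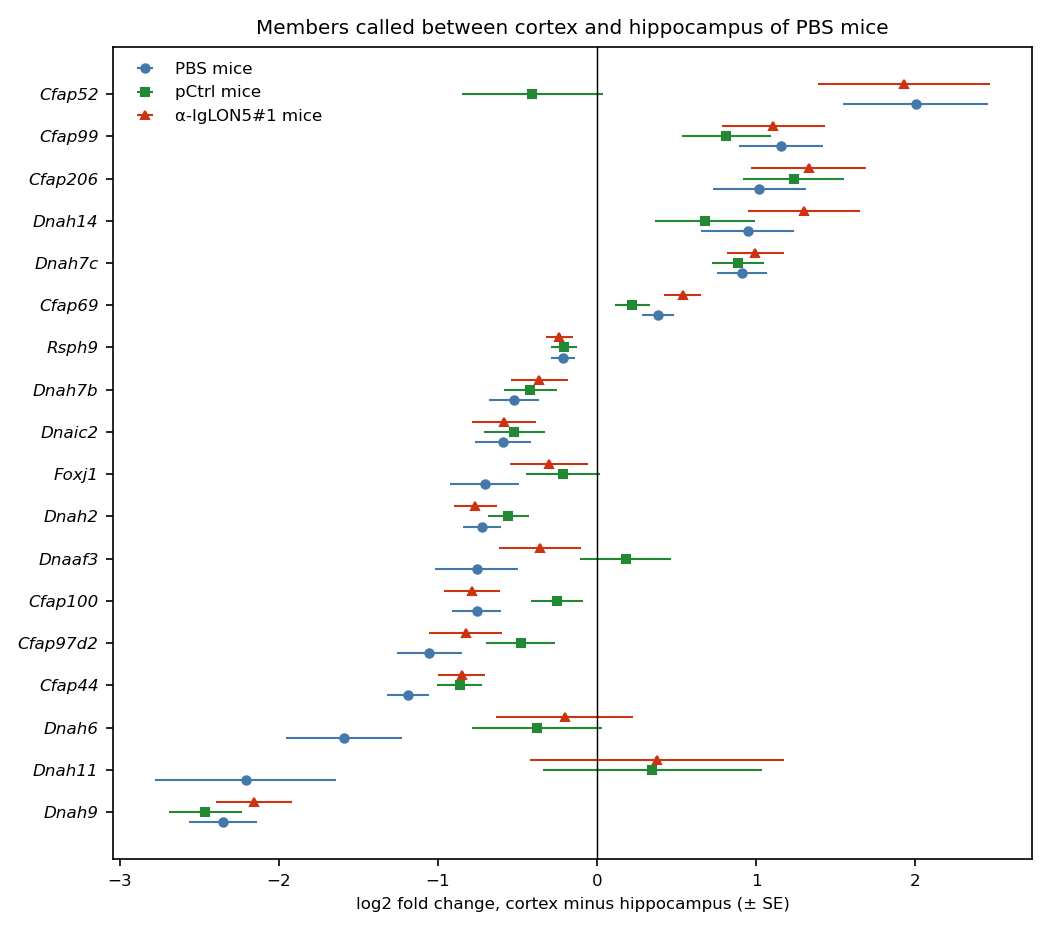
Log2 fold change of cortex minus hippocampus (horizontal axis, ± SE) for the 18 members called in PBS mice, in PBS (circles), pCtrl (squares) and α-IgLON5#1 mice (triangles). Dnah9 lies near -2.35 in PBS mice and on the same side in the others, whereas Dnah11 is at -2.21 in PBS mice alone.

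Whether antibodies against IgLON5 changed the members was asked first in hippocampus. Against pCtrl, 4 of 58 members were called (6.90%), against 7.01% of all genes, with 3 higher (4.23% of all genes) and 1 lower (2.78%). Of the members, 29 had a higher and 29 a lower estimate, and the median log2 fold change was -0.0028 for members and 0.0012 for all genes. Called were the assembly factor Dnaaf3, the central apparatus protein Cfap74 and the inner arm heavy chain Dnah2 (higher) and Cfap52 (lower). No inner arm docking, outer arm or radial spoke gene was called.

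Dnaaf3, which helps to assemble dynein arms in the cytoplasm (chr7:4522933-4532453, minus strand), was at 1.53, 1.24, 0.950 and 1.12 CPM in α-IgLON5#1 hippocampi. In pCtrl hippocampi it was at 0.347, 0.320, 0.405 and 0.393 CPM, and in PBS hippocampi at 0.546, 0.771, 0.528, 0.564 and 0.612 CPM. Every α-IgLON5#1 library stood above every control library, 3.26-fold above pCtrl (log2 1.70 ± 0.28, adjusted p = 0.000242) and 1.95-fold above PBS (log2 0.96 ± 0.25, adjusted p = 0.0227). With mice 8 to 17 only, the log2 fold change against pCtrl was 1.83 and the call was lost. Against PBS the call was lost without α-IgLON5#1 mouse 8 (adjusted p = 0.123), α-IgLON5#1 mouse 9 (0.0575) or PBS mouse 33 (0.0626). The level rests on few reads, 22 to 39 counts in α-IgLON5#1 and 16 to 17 in pCtrl hippocampi. The 3′ part of Dnaaf3 overlaps Tnni3 on the same strand over 1297 bases, and Tnni3 was at 0.736 to 0.935 CPM in α-IgLON5#1, 0.169 to 0.589 CPM in pCtrl and 0.293 to 0.475 CPM in PBS hippocampi. Tnni3 was itself higher against pCtrl by 1.40 ± 0.31 (adjusted p = 0.00671). Microglial marker RNA also stood higher in α-IgLON5#1 hippocampi (491 to 908 CPM over 8 genes, against 305 to 390 CPM in control hippocampi), in a different order. Mouse 8 held the highest Dnaaf3 and the lowest sum, and mouse 9 held the highest sum with Dnaaf3 at 1.24 CPM. The astrocyte gene Gfap was higher too, at 732 to 1380 CPM against 354 to 594 CPM in control hippocampi. The part of any of these in the level of Dnaaf3 was not tested.

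Cfap52 (chr11:67924806-67965651, minus strand, overlapped by 9130017K11Rik on the other strand) was at 0.246, 0.394, 0.827 and 0.917 CPM in α-IgLON5#1 and at 2.23, 1.19, 6.14 and 1.08 CPM in pCtrl hippocampi, mice 10, 15, 37 and 75. The groups did not overlap, and the log2 fold change was -2.05 ± 0.54 (adjusted p = 0.0204). PBS hippocampi, at 0.205 to 1.23 CPM, overlapped the α-IgLON5#1 group. The hippocampi of pCtrl mice 10 and 37, the 2 with the highest Cfap52, also held the most cortex marker RNA (368 and 452 CPM over 8 genes), and Cfap52 was higher in PBS cortex than in PBS hippocampus. The level of 6.14 CPM lay above that of every cortex library, and the cortex of the same mouse was the lowest at 0.632 CPM, against 1.45 to 3.27 CPM in the other cortices. The part of cortex RNA in the hippocampal level was not tested. Without the hippocampi of mice 10 and 37 the difference was -0.83 (adjusted p = 0.628), and without that of mouse 37 alone it was -1.23 (adjusted p = 0.184). The call was also lost without the hippocampus of α-IgLON5#1 mouse 8 (adjusted p = 0.0827) or 9 (0.0753).

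Cfap74 was at 13.5, 17.6, 16.6 and 15.2 CPM in α-IgLON5#1, at 12.3, 12.4, 12.1 and 11.96 CPM in pCtrl and at 12.1 to 14.2 CPM in PBS hippocampi. It was higher than with pCtrl by 0.37 ± 0.10 on the log2 scale (adjusted p = 0.0252), without overlap between these groups. The microglial marker sum stood in the same order over these 4 libraries, at 491, 908, 692 and 515 CPM, and above the 305 to 390 CPM of control hippocampi, and its part in the level of Cfap74 was not tested. Dnah2 was at 8.32, 8.51, 7.60 and 6.62 CPM with α-IgLON5#1, at 6.15, 6.54, 4.97 and 5.21 CPM with pCtrl and at 7.18 to 8.70 CPM with PBS. Its difference from pCtrl, 0.43 ± 0.13, was just past the threshold (adjusted p = 0.0497), whereas its values overlapped those of PBS. Dnah2 was lower in PBS cortex, its lowest hippocampal value was that of pCtrl mouse 37, which held the most cortex marker RNA (452 CPM), and the part of that was not tested. With 1 library left out in turn, Cfap74 kept its call in 5 of 8 fits and lost it without α-IgLON5#1 mouse 9 (adjusted p = 0.114), pCtrl mouse 10 (0.0621) or pCtrl mouse 37 (0.0810). Dnah2 kept its call in 2 of 8 fits, those without pCtrl mouse 15 or α-IgLON5#1 mouse 17.

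**Figure D4:**
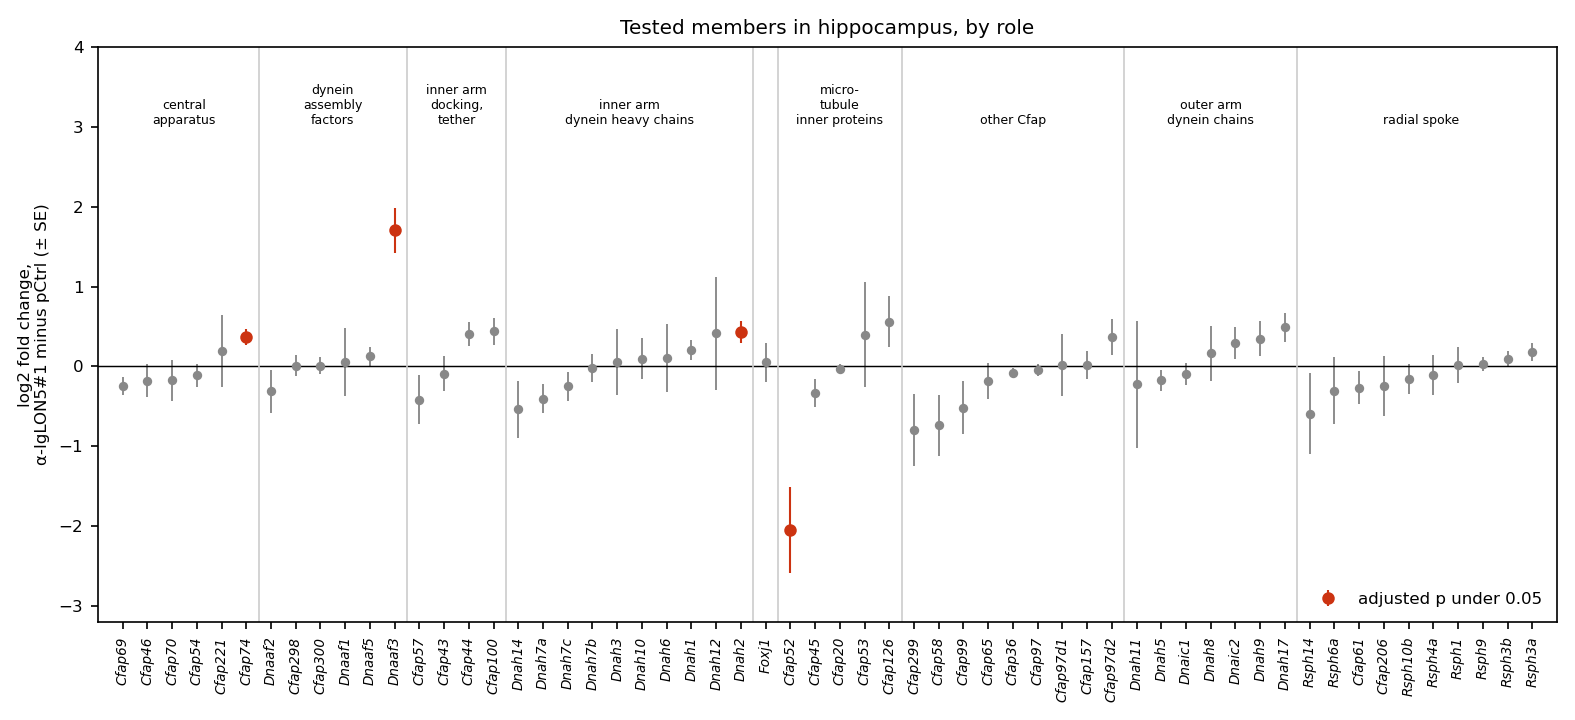
Log2 fold change of α-IgLON5#1 minus pCtrl in hippocampus (vertical axis, ± SE) for the 58 tested members, ordered by role. The 4 red points passed an adjusted p of 0.05, and they include Dnaaf3 at 1.70 and Cfap52 at -2.05; the unlabelled column holds Foxj1 at 0.05.

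Against PBS, 2 members were called in α-IgLON5#1 hippocampi (3.45% of 58, against 4.29% of all genes), Dnaaf3 higher (3.81% of all genes) and Dnah11 lower (0.474%). Dnah11 stood at 0.197, 0.0563, 0.306 and 0.201 CPM in α-IgLON5#1 and at 0.102, 2.92, 0.587, 0.327 and 2.19 CPM in PBS hippocampi, mice 14, 32, 33, 38 and 74. The groups overlapped, and the difference of -2.63 ± 0.67 (adjusted p = 0.0193) became -0.75 (adjusted p = 0.683) without mice 32 and 74. The call was also lost without either of them alone or without α-IgLON5#1 mouse 8, 9 or 17 (adjusted p from 0.0591 to 0.0990). Members leaned to lower estimates, 46 of 58 with a median of -0.14, where the median of all genes was -0.01 and 48.3% of them were higher. Between the control groups 44 of 58 were lower in pCtrl than in PBS hippocampi (median -0.14, with 50.7% of all genes higher) and 40 of 58 in cortices (-0.11, with 49.0% of all genes higher). In α-IgLON5#1 against pCtrl cortices 41 of 58 were higher (0.08), where 48.4% of all genes were. Without the hippocampi of mice 32 and 74 the median was -0.03 for α-IgLON5#1 and also for pCtrl against PBS, with 26 and 27 members higher. Without the hippocampi of pCtrl mice 10 and 37 the median of pCtrl against PBS was -0.22, with 8 members higher.

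Between the 2 control groups in hippocampus, Cfap44 was called lower in pCtrl than in PBS (1 of 58 members, 1.72%, against 0.192% of all genes in either and 0.0592% in this direction). It stood at 6.54, 7.82, 6.80 and 7.29 CPM in pCtrl against 9.68 to 12.8 CPM in PBS, a difference of -0.70 ± 0.14 (adjusted p = 0.0433), and the groups did not overlap. The 2 lowest values, in pCtrl mice 10 and 37, were in the hippocampi with the most cortex marker RNA (368 and 452 CPM, against 208 to 311 CPM in PBS), and its part in the difference was not tested. In α-IgLON5#1 hippocampi it was at 12.01, 9.18, 7.75 and 8.91 CPM, overlapping both control groups. Dnah11, Dnah12 and Dnah6 had larger estimates, -2.41 ± 0.60, -2.38 ± 0.57 and -1.40 ± 0.38, without passing (adjusted p = 0.0685, 0.0677 and 0.0833). Their PBS means rest on mice 32 and 74, and the other 3 PBS hippocampi were at 0.102 to 0.587, 0.171 to 0.297 and 0.785 to 1.54 CPM. The call of Cfap44 was lost without the hippocampus of PBS mouse 14, 32 or 74 or of pCtrl mouse 10 or 37 (adjusted p from 0.0568 to 0.421). All hippocampal comparisons share libraries, so they are not independent of each other or of the comparison with cortex.

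In cortex, Dnaaf3 alone was called with α-IgLON5#1, both against pCtrl (1 of 58, 1.72%, against 3.46% of all genes and 3.01% in this direction, 0.449% in the other) and against PBS (1 of 58, against 3.05% of all genes, 2.97% higher and 0.074% lower). It was at 1.00, 1.30, 0.548 and 0.914 CPM in α-IgLON5#1 cortices, at 0.313, 0.213, 0.377, 0.632 and 0.499 CPM in pCtrl and at 0.219, 0.444, 0.302, 0.536 and 0.302 CPM in PBS cortices. The lowest α-IgLON5#1 cortex, that of mouse 16, lay below the highest pCtrl cortex and just above the highest PBS cortex. The log2 fold change was 1.16 ± 0.26 against pCtrl (adjusted p = 0.00915) and 1.36 ± 0.27 against PBS (adjusted p = 0.00188). With only the groups compared in the fit, the log2 fold changes were 1.17 and 1.38 and the calls were lost (adjusted p = 0.102 and 0.0547), and with mice 8 to 17 only the one against pCtrl was 1.57 (adjusted p = 0.0767). Tnni3 was at 0.484 to 0.613 CPM with α-IgLON5#1 and at 0.0626 to 0.473 CPM in the control cortices, without a call (adjusted p = 0.134 against pCtrl and 0.720 against PBS). Microglial marker RNA stood at 474 to 539 CPM in α-IgLON5#1 cortices and 334 to 407 CPM in control cortices, and its part in the level of Dnaaf3 was not tested. Between pCtrl and PBS cortices edgeR called 0 members and 0.0% of all genes, with 5 members at an unadjusted p under 0.05, and DESeq2 also called 0 members.

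**Figure D5:**
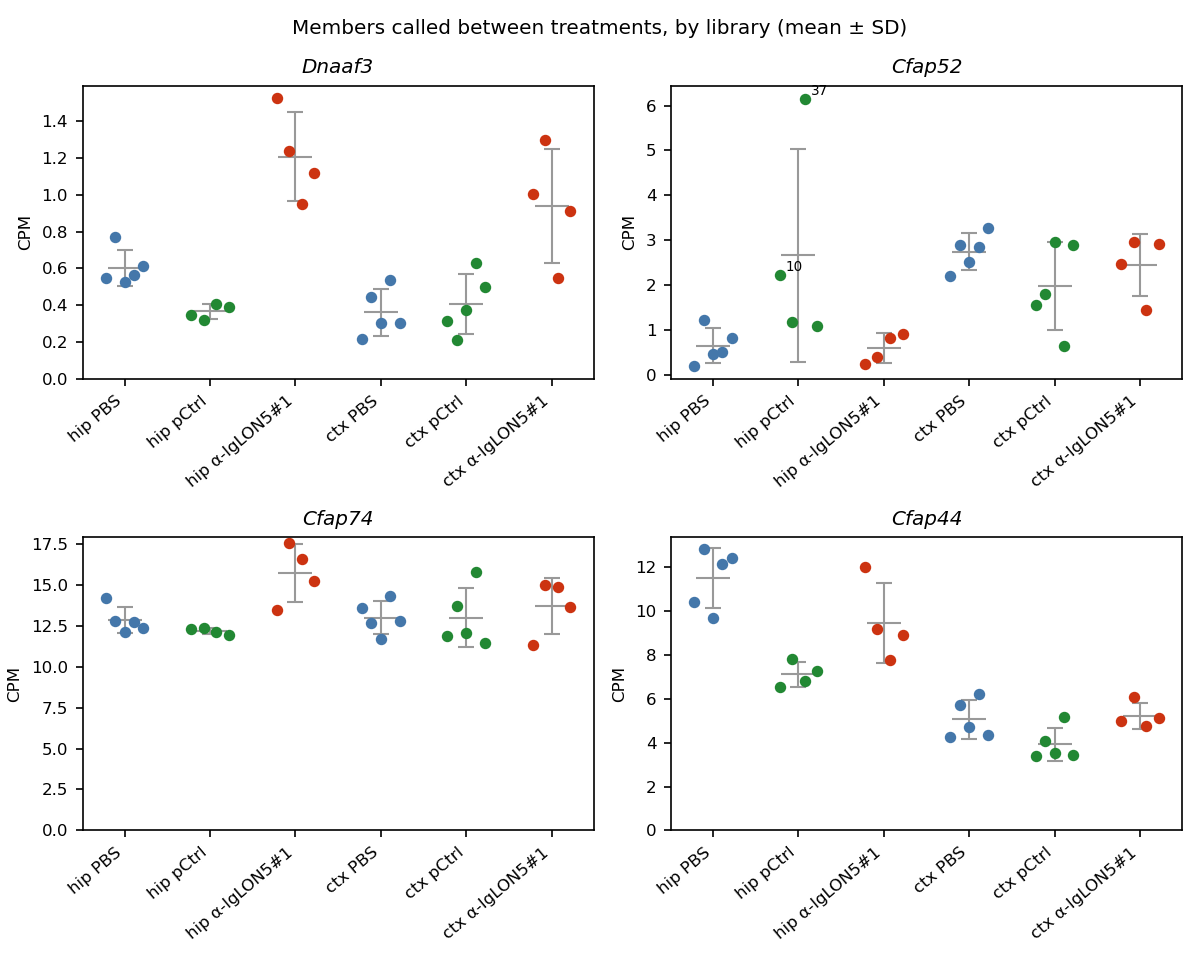
Level in each library, in CPM (vertical axes, linear), of Dnaaf3, Cfap52, Cfap74 and Cfap44 by tissue and treatment, with points for libraries and bars for the mean ± SD; the numbers mark the hippocampi of pCtrl mice 10 and 37. All 4 α-IgLON5#1 hippocampi lie above the control hippocampi for Dnaaf3, and the pCtrl mean of Cfap52 is carried by mouse 37 at 6.14 CPM.

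The effect of α-IgLON5#1 against pCtrl was not called as different between tissues for any member. The interaction test called 0 members and 0.0% of all genes in edgeR, with 6 members at an unadjusted p under 0.05, and 0 members in DESeq2. The smallest adjusted p was that of Cfap52, at 0.245, with a difference of -2.34 ± 0.70 between the tissues' log2 fold changes. For Foxj1 the difference was 0.09 ± 0.34 (adjusted p = 0.961).

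Genes of the pathway outside the set were counted from lists. Of 46 tested motile cilia genes outside the set, 0 were called between treatments in either tissue. With α-IgLON5#1, 7.01% of all genes were called against pCtrl and 4.29% against PBS in hippocampus, and 3.46% and 3.05% in cortex. Between the control groups 0.192% were called in hippocampus and 0.0% in cortex, and the lists below stand beside the same shares. Of the 46, 12 were lower and 6 higher in PBS cortex than in PBS hippocampus (median -0.18, against -0.01 over all genes), where 12.7% of all genes were called lower and 14.1% higher. Leaving out the hippocampi of PBS mice 32 and 74 left 4 lower and 5 higher (median -0.07). The smallest p-values there were those of Spef2, a central apparatus protein (lower by 1.76 ± 0.28 on the log2 scale), the assembly factor Lrrc6 (higher by 0.81 ± 0.13) and Meig1 (lower by 1.33 ± 0.24). Of 11 tested genes of the multiciliation programme, 5 were lower in PBS cortex and 0 higher (median -0.47), and also 5 and 0 without those 2 hippocampi. Gmnc, an early switch of that programme, stood at 1.14 CPM in PBS cortex and 6.68 CPM in PBS hippocampus, Trp73, which acts upstream of Foxj1, at 0.616 and 3.71 CPM, and Rfx3 at 79.0 and 157 CPM. None of the 11 was called between treatments. Of 25 genes of the primary cilium and intraflagellar transport, 3 were higher and 1 lower in PBS cortex, led by Bbs9 (0.38 ± 0.07), Kif17 (0.23 ± 0.07) and Ift140 (-0.15 ± 0.05), and 0 were called between treatments. The median of these 25 was 0.04 between the tissues, and 1 was called higher and 0 lower without the 2 hippocampi. Among the 7 tested ependymal markers, Ccdc153 was called lower in α-IgLON5#1 than in PBS hippocampi (-4.39 ± 1.16, adjusted p = 0.0252), and its 2 high values are those of PBS mice 32 and 74. Rarres2 was lower in PBS cortex (-0.49 ± 0.18, adjusted p = 0.0457), and stood at -0.21 (adjusted p = 0.523) without the same 2 hippocampi. In that fit 1 of the 7 markers was called higher in cortex and 0 lower. Of 11 tested choroid plexus genes, 4 were lower in PBS cortex and 0 higher (median -0.50), and 0 were called between treatments.

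Likeness to Foxj1 within groups was described by Spearman's rho of log2 CPM over the 27 libraries after the group means were subtracted. The libraries share mice and dissections, so no test was made. Among members the closest were Dnaic2, the outer arm intermediate chain whose upstream window holds an X-box (0.58), Cfap52 (0.57) and Cfap43 (0.49), and the median of the 57 other tested members was 0.15, against -0.0024 over all tested genes. Without the hippocampi of PBS mice 32 and 74 the member median was -0.03, Dnaic2 was at 0.36, Cfap52 at 0.33 and Cfap43 at 0.29, and Rsph3a was the closest member at 0.40. Dnaic2 itself ran from 0.745 to 2.83 CPM and was highest in the hippocampus of PBS mouse 74. The 5 genes outside the set with the highest rho were Prkcq (0.75), Hs3st4 (0.71), Gm7067 (0.67), Ppp1r14c (0.66) and Gstp1 (0.66).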

How the data were processed

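Bulk RNA-seq was measured in 27 libraries of cortex and hippocampus. The authors deposited an unnormalized table of raw read counts. Per the labels, TruSeq Stranded mRNA libraries were sequenced in paired-end mode, and the processing notes name STAR 1.4.0. The methods give alignment with STAR to GRCm38. The counting program, its strand setting and its annotation are not given in the sources used here. Reads of overlapping genes, present on the other strand for 38 members and on the same strand for 11, therefore cannot be told apart.

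Gene IDs without version were matched to GENCODE M21 (55227 of 55487). The test was edgeR 4.0.16 in R 4.3.3, on genes reaching 10 counts in 4 or more libraries (TMM, glmQLFit and glmQLFTest, 6 groups, no covariate), and a gene was called at an adjusted p under 0.05. CPM use TMM effective library sizes, and log2 CPM a prior count of 1. Limits at a count of 0 use 3 counts per library, and counting error alone is covered by them. The methods' fold threshold of 2, DESeq2 1.42.0, RLE size factors, no filter, only the groups compared, only mice 8 to 17, the mouse as a block and each library left out were alternatives. Leaving out 2 libraries at once and testing the tissues in antibody-treated mice were chosen after seeing the data. The tests were tested on simulated data.

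Title numbers were taken as mouse numbers, since the same number and treatment recur in both tissues. Deviations from group means correlated over genes between the tissues of a mouse at -0.0498 to 0.443, above 0.1 in 8 of 13 mice. Libraries of a group were not repeats, since chi-square over degrees of freedom was at least 4.82 in all 48 pairs. The labels do not say that litters or cultures were separate, so p-values measure the spread between these mice.

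Members and lists were chosen with earlier results of these data known. Given in full are Foxj1, the called members with the 5 smallest adjusted p per comparison and the member of each role with the highest level per kilobase. Dnah6 and Dnah12 were added after their values were seen.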

Additional observations from a re-analysis of the deposited data

Results flagged for a closer look

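In 9 of 120 groups of 4 or 5 libraries, over the 20 genes given in full, 1 library lay apart from the rest by Dixon's criterion, where chance gives about 1 in 20. Dnah11 was high in the cortex of pCtrl mouse 37, at 0.772 CPM with the next library at 0.299 CPM. Dnah9 was high in the hippocampus of α-IgLON5#1 mouse 9, at 21.7 CPM against 16.8 CPM. Dnah7c was low in the hippocampus of PBS mouse 14, at 2.39 CPM against 3.20 CPM. Cfap69 was high in the cortex of PBS mouse 38, at 26.3 CPM against 23.8 CPM. Cfap300 was low in the cortex of α-IgLON5#1 mouse 16, at 9.29 CPM against 10.9 CPM. Cfap20 was high in the hippocampus of pCtrl mouse 75, at 39.9 CPM against 35.4 CPM, and low in the cortex of PBS mouse 38, at 32.8 CPM against 37.3 CPM, and of pCtrl mouse 10, at 35.7 CPM against 37.9 CPM. Dnaic1 was high in the hippocampus of pCtrl mouse 10, at 3.35 CPM against 2.62 CPM.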

How the results depend on the processing

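Of 468 values of named members under an alternative, 373 kept direction and call, 78 lost the call and 17 changed sign. The counts of members called that follow are given without the share of all genes under the same setting. A changed count is therefore not read as particular to the members. The 4 members called in hippocampus between α-IgLON5#1 and pCtrl became 2 without the count filter or with a fold change above 2, 1 with only the groups compared or without pCtrl mice 10 and 37, and 0 with mice 8 to 17 only. Leaving out 1 library gave 1 to 6, with 2 when α-IgLON5#1 mouse 8 or pCtrl mouse 10 was left out and 1 when α-IgLON5#1 mouse 9 or pCtrl mouse 37 was. Against PBS, the 2 called became 5 in DESeq2 (1 higher, 4 lower), 4 without the filter, and 1 with only the groups compared, a fold change above 2 or without PBS mice 32 and 74. Leaving out 1 library gave 0 to 5, with 0 for α-IgLON5#1 mouse 9, 1 for α-IgLON5#1 mice 8 and 17 and PBS mice 32 and 74, and 5 for PBS mice 14 and 38. Between pCtrl and PBS hippocampi, 1 became 7 in DESeq2 (2 higher, 5 lower), 3 without the filter, and 0 with only the groups compared, a fold change above 2 or either pair of libraries left out. Leaving out 1 library gave 0 to 4, with 0 without PBS mouse 14, 32 or 74 or pCtrl mouse 10 or 37, 2 without PBS mouse 33, 3 without pCtrl mouse 15 or 75 and 4 without PBS mouse 38. In cortex, the single call became 0 with only the groups compared, both against pCtrl and against PBS, and 0 with mice 8 to 17 only against pCtrl. Leaving out 1 library gave 1 to 2 against pCtrl, with 2 without α-IgLON5#1 mouse 16 or pCtrl mouse 37, and 1 against PBS. The 18 called between tissues became 8 with a fold change above 2 and 8 in pCtrl mice (3 higher, 5 lower each), 17 in α-IgLON5#1 mice (10 higher, 7 lower) and 15 to 22 with 1 library left out. With the replicate block there were 19, Rsph9 lost its call, and the block changed no other call of a named member. The summed level in pCtrl hippocampi was 373.3 CPM with plain library totals. Foxj1, never called between treatments, changed sign against pCtrl in hippocampus (-0.011 with mice 8 to 17 only, -0.059 to 0.23 over libraries left out), in cortex (-0.12 to 0.055) and between tissues (-0.0078 with mice 8 to 17 only, -0.0255 to 0.26), against PBS in hippocampus without PBS mice 32 and 74 (0.12 for α-IgLON5#1 and 0.060 for pCtrl) and between the control cortices (-0.12 to 0.027). Between tissues, Dnaaf3 stood at 0.18, Cfap52 at -0.41 and Dnah11 at 0.35 in pCtrl mice, and Dnah11 at 0.38 in α-IgLON5#1 mice. The cause was not tested in any of these. Dnaaf3 against pCtrl in hippocampus kept its call with any 1 library left out and lost it with mice 8 to 17 only (1.83, adjusted p = 0.0540). Against PBS in hippocampus Dnaaf3 kept its call in 6 of 9 such fits, and in cortex in 9 of 9 against either control.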
